A study of Mus musculus with 13 samples.

Results

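The Siglecs are cell-surface receptors of immune cells that bind sialic acids, the acidic sugars at the ends of many glycan chains. The 7 members described here, Siglec1, Siglech, Cd33, Siglece, Siglecf, Siglecg and Cd22, were chosen by gene symbol from the 48587 symbols of a bulk RNA sequencing count table. The table covers total RNA of macrophages from sciatic nerve (4 libraries), macrophages from optic nerve (4 libraries) and microglia from brain (5 libraries) of C57BL/6J mice. The labels name no mutation, transgene or treatment in any of the 13 libraries, and the sources used here do not give the age of the mice, how cells were isolated or whether animals were pooled. The sciatic nerve belongs to the peripheral nervous system and the optic nerve to the central nervous system, and the study set macrophages of both against brain microglia.

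Members of the family share an outermost immunoglobulin-like domain that holds the sugar, and differ in what their inner part does. Most carry tyrosine motifs (ITIMs) that recruit phosphatases and dampen activation when the receptor meets sialic acid on the cell's own surface or on a neighbour. Siglec-H lacks such motifs and pairs with the adaptor DAP12, encoded by Tyrobp, while sialoadhesin, encoded by Siglec1, is mainly an adhesion receptor. In the brain, microglia are the main carriers of several members, and human CD33 has been linked genetically to Alzheimer disease.

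Total counts ran from 10.9 to 23.5 M per library. Levels below (CPM) are counts per 1e+06 of the library size after TMM scaling, and folds and tests come from edgeR's quasi-likelihood test across 13246 genes with Benjamini-Hochberg adjustment, with a gene called at an adjusted p under 0.05. The macrophage marker Csf1r averaged 4756 CPM in sciatic, 7030 CPM in optic and 10965 CPM in brain libraries, and the summed level of 6 microglia genes was 1081 to 1377 CPM in sciatic, 25668 to 29542 CPM in optic and 24376 to 49341 CPM in brain libraries. The brain columns carry a prefix that the labels do not explain and were taken as brain because brain is the group with 5 replicates, so brain libraries are numbered here by column. Brain libraries 1 and 2 stood apart: their log2 levels correlated with other brain libraries at 0.928 at most, against at least 0.966 among libraries 3 to 5. Library 1 had 3.79% of its counts in mitochondrial genes, against 0.410% to 1.23% in the other 12. P2ry12, a microglia receptor, was at 4841 and 5897 CPM in libraries 1 and 2 and at 10294 to 10466 CPM in libraries 3 to 5. Results on the 7 members that depend on these libraries are therefore also given without them. For the pathway genes, counts of calls without them stand at the end. Single values are given for some, not all, of the genes whose call changed when libraries were left out. The labels do not say that replicates came from separate animals, so p-values may measure technical spread only.

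Siglec1 lies on chromosome 2 and the other members on chromosome 7 (GRCm38, GENCODE M21 gene models). Siglec1 spans chr2:131069220-131086765 on the minus strand. Siglecf (chr7:43351341-43359531, plus strand), Siglecg (chr7:43408204-43418358, plus), Cd33 (chr7:43524216-43544428, minus) and Siglece (chr7:43651070-43660161, minus) stand within 309 kb that hold 16 protein-coding genes. Siglech (chr7:55768178-55778925, plus) and Cd22 (chr7:30865402-30880342, minus), not far from the myelin Siglec gene Mag (chr7:30899176-30914873), lie apart from this cluster. The cluster is shown through the 250 bases before the RefSeq start site (GRCm38.p6) of Siglecf, Cd33 and Siglece, with Siglech for comparison, because the pattern over the tissues differed among them: Siglech and Siglecf were far lower in sciatic nerve macrophages, and Cd33 and Siglece differed by less than 1 on the log2 scale in every comparison. Capitals mark GGAAGT, the core bound by ETS factors, and GAGGAA, the core preferred by the ETS factor PU.1, searched on both strands, so that ACTTCC and TTCCTC are the same motifs on the other strand. No match overlapped another. RefSeq and GENCODE start sites can differ, and the Cd33 window lies within the GENCODE span of Cd33 given above.
Siglech upstream (chr7:55767934-55768183, plus strand): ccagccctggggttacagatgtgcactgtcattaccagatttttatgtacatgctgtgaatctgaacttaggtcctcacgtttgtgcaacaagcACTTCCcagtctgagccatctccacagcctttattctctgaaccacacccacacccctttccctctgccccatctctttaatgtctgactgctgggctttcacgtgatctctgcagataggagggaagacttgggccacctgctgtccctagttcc
Siglecf upstream (chr7:43351091-43351340, plus strand): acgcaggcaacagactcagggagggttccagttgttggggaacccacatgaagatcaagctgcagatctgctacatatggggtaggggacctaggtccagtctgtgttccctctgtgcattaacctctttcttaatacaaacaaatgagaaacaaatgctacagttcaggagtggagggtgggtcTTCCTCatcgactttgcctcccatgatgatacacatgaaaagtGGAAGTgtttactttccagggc
Cd33 upstream (chr7:43533172-43533421, minus strand): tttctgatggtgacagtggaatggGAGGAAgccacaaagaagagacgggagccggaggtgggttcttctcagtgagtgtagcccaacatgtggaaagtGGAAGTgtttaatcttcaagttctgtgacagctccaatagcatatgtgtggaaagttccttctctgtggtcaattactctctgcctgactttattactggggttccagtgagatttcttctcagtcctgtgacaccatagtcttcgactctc
Siglece upstream (chr7:43660162-43660411, minus strand): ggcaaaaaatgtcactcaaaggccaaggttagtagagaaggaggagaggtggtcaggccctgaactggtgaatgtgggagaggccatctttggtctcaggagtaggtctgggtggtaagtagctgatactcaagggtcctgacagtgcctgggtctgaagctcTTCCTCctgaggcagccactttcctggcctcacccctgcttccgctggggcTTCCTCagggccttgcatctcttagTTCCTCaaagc
RefSeq windows were found for 6 of the 7 members, not for Siglec1. GGAAGT was present in 3 of the 6, Siglech, Siglecf and Cd33, against 19.7% of all 32851 windows of the same length, and GAGGAA in 4 of the 6, Siglece, Siglecf, Siglecg and Cd33, against 23.3%. Members are counted here by the first RefSeq start site. Siglecg has 2, and GAGGAA is in 1 of its 2 windows. The interferon-stimulated response element was in none of the 6, against 2.98% of all windows, and Siglec1 could not be searched. Siglecf and Cd33 share a 16-base run around GGAAGT, which starts 27 bases before the start site of Siglecf and 157 before that of Cd33 and, on either strand, is in 2 of the 32851 windows, those of these genes. It was picked as the longest run shared by any pair of the 6 windows. Its presence in both was therefore fixed by the choice, and the count of windows is a description only.
Shared run: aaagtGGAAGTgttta
So the run is common to a gene with a large tissue difference, Siglecf, and to its cluster neighbour Cd33, which was not called in any comparison of all 13 libraries. A motif match describes these letters and is not evidence of binding.

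All 7 members passed the filter on low counts, and they share little sequence. Of the 50-base words of each member's transcripts, between 0% (Siglece) and 7.84% (Cd22) also occur in another gene, and members share words with each other only between Siglecf and Siglecg (6 words). Cd22 overlaps an antisense gene, Gm29439, over 479 exonic bases (9.50% of its exonic length), and since the strand setting of the counting is not given, reads there cannot be told apart.

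In sciatic nerve against brain, Siglec1 rose and 4 members fell (Siglech, Siglecf, Siglecg and Cd22), while Cd33 and Siglece were not called, so that 5 of 7 were called beside 48.4% of all genes tested (24.1% higher and 24.3% lower). The libraries of these tissues did not overlap for 4 of the 7, beside 41.3% of all genes. In optic nerve against brain, Siglec1 rose, Siglech and Siglece fell and 4 members were not called, so that 3 of 7 were called beside 36.9% of all genes (19.6% higher and 17.4% lower). The libraries did not overlap for 2 of the 7, beside 31.8% of all genes. In sciatic against optic nerve, Siglec1 rose and Siglech, Siglecf, Siglecg and Cd22 fell, so that 5 of 7 were called beside 21.8% of all genes (10.9% higher and 10.9% lower). The libraries did not overlap for 5 of the 7, beside 29.9% of all genes. With 7 members, these shares describe the family only. The median log2 fold change of the 7 was -2.06, -0.40 and -2.19 in these comparisons, beside medians of -0.09, -0.08 and 0.00 over all genes tested. The 3 comparisons share libraries and are not independent of each other. Counts of called genes in the lists below are to be read beside the same shares of all genes, 48.4%, 36.9% and 21.8%.

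**Figure D1:**
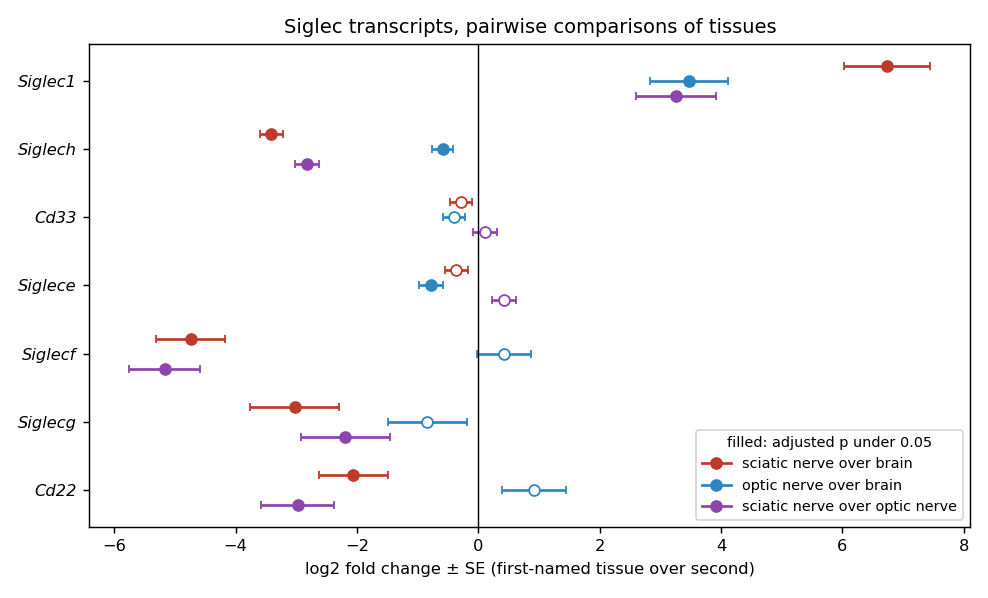
Log2 fold change ± SE of each Siglec gene (rows) in the 3 pairwise comparisons, first-named tissue over second, from edgeR's fit of 4 sciatic nerve, 4 optic nerve and 5 brain libraries. Filled points have an adjusted p under 0.05. Siglec1 lies right of 0 in all 3 comparisons, and Siglech, Siglecf, Siglecg and Cd22 lie left of 0 wherever sciatic nerve is on top.

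Siglec1 encodes sialoadhesin, a long receptor that holds sialylated cells and particles at the surface of resident tissue macrophages. It was at 108, 93.7, 153 and 141 CPM in the sciatic nerve libraries, at 14.5, 9.52, 4.24 and 23.5 CPM in the optic nerve libraries and at 0, 2.60, 0.233, 0.909 and 1.71 CPM in the brain libraries. The tissues did not overlap, with sciatic nerve highest (mean 124 ± 27.6 CPM, SD, n = 4), optic nerve between (12.95 ± 8.21 CPM, n = 4) and brain lowest (1.09 ± 1.07 CPM, n = 5). Brain library 1 had no count, which allows up to 0.227 CPM there (3 counts of the library). The log2 fold change was 6.74 ± 0.72 (SE) in sciatic nerve over brain (edgeR adjusted p = 1.96e-06) and 3.48 ± 0.64 in optic nerve over brain (edgeR adjusted p = 7.74e-04). Sciatic nerve over optic nerve gave 3.26 ± 0.66 (edgeR adjusted p = 0.00202). In bulk RNA, fewer cells that express a gene and less RNA of it per cell cannot be told apart.

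Genes of border and nerve macrophages moved along with Siglec1. The summed level of Mrc1, Cd163, Lyve1, F13a1, Folr2 and Cbr2, surface receptors and enzymes of macrophages at tissue borders and in nerves, was 10331 to 12681 CPM in sciatic, 269 to 605 CPM in optic and 8.52 to 26.4 CPM in brain libraries. All 6 were called higher in sciatic nerve over brain, in optic nerve over brain and in sciatic over optic nerve. The mean of Siglec1 in optic nerve was 10.5% of its mean in sciatic nerve, next to Lyve1 (9.28%) and above the other 5, which ran from 2.02% (Folr2) to 3.72% (Cbr2). In brain it was 0.881% of the sciatic nerve mean, next to 0.772% for Mrc1 and at most 0.0886% for the rest. Over optic nerve libraries 1 to 4 the summed level was 397, 269, 304 and 605 CPM, and Siglec1 was at 14.5, 9.52, 4.24 and 23.5 CPM. Both were highest in library 4 and next in library 1. The lowest was library 2 for the sum and library 3 for Siglec1.

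Summed markers of some other cell types, monocytes and fibroblasts among them, were also highest in sciatic nerve. Those of B cells were highest in brain and those of oligodendrocytes in optic nerve, as given below. The 6 monocyte genes summed to 385 to 562 CPM in sciatic, 7.03 to 23.3 CPM in optic and 0.712 to 10.2 CPM in brain libraries. Most of the sciatic sum was the chemokine receptor gene Ccr2 (458 CPM on average), while Ly6c2 averaged 0.0692 CPM and Chil3 was at 0 in sciatic nerve. Only Ccr2 and Plac8 of the 6 were tested, and both were called higher in sciatic nerve over brain. Neither was called in optic nerve over brain, and 1 of them was called higher in sciatic over optic nerve. The 6 fibroblast genes summed to 26.6 to 154 CPM in sciatic, 0.112 to 3.55 CPM in optic and 0 to 0.285 CPM in brain libraries, much of it Dcn. The part of border macrophage, monocyte or fibroblast RNA in the Siglec1 levels was not tested.

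**Figure D2:**
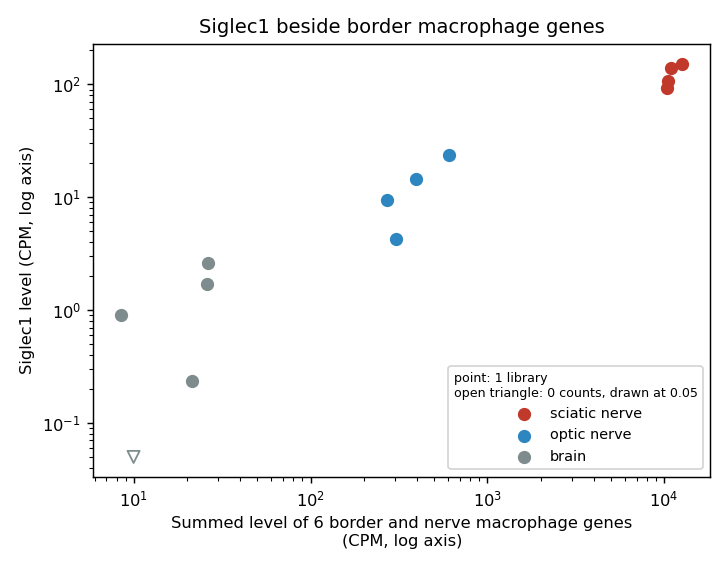
Level of Siglec1 (y axis, CPM, log axis) against the summed level of Mrc1, Cd163, Lyve1, F13a1, Folr2 and Cbr2 (x axis, CPM, log axis), 1 point per library, with the brain library that had no Siglec1 count drawn as an open triangle at 0.05. Sciatic nerve libraries lie at 93.7 CPM or more of Siglec1 and 10331 CPM or more of the summed genes, optic nerve libraries between, and brain libraries lowest on both axes.

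Siglec1 is known as an interferon-induced gene in macrophages. Of 14 genes of the type I interferon response, 10 rose in sciatic nerve over brain and 11 in optic nerve over brain, none fell in either, and the median log2 fold changes were 2.57 and 2.26. Between sciatic and optic nerve only Oasl2 was called, with 160 CPM in sciatic and 43.0 CPM in optic libraries on average (log2 fold change 1.89 ± 0.39, edgeR adjusted p = 0.00212), and the list's median was 0.02. The antiviral gene Rsad2 averaged 80.7 CPM in sciatic, 47.4 CPM in optic and 3.65 CPM in brain libraries, and Irf7, the master regulator of the response, 97.8 CPM in sciatic, 77.3 CPM in optic and 5.73 CPM in brain libraries. Ifit1, an RNA sensor, rose by 3.76 ± 0.54 on the log2 scale in sciatic nerve over brain, and by 4.44 without brain library 5. Ifi44 rose by 3.99 ± 1.24 in optic nerve over brain, with overlapping libraries, and this call was lost without optic nerve library 1 (2.84, edgeR adjusted p = 0.101) and without brain libraries 1 and 2 (3.45, edgeR adjusted p = 0.0519). The summed level of the list overlapped between the nerves (819 to 1205 CPM in sciatic nerve and 652 to 1122 CPM in optic nerve) and was 266 to 372 CPM in brain. The part of the interferon response in the Siglec1 levels was not tested.

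Siglech, the DAP12-coupled member known from microglia and plasmacytoid dendritic cells, had the opposite order. It was at 226, 277, 199 and 253 CPM in sciatic nerve libraries, at 1649, 1696, 1907 and 1498 CPM in optic nerve libraries and at 3513, 2791, 2123, 2160 and 2090 CPM in brain libraries. Again no tissues overlapped, and every brain library was above every optic nerve library. The log2 fold change was -3.41 ± 0.19 in sciatic nerve over brain (edgeR adjusted p = 1.94e-09) and -2.82 ± 0.19 in sciatic over optic nerve (edgeR adjusted p = 5.31e-08). The difference between optic nerve and brain was smaller, -0.59 ± 0.17 (edgeR adjusted p = 0.0159), and was -0.32 ± 0.12 without brain libraries 1 and 2, which held the highest levels (edgeR adjusted p = 0.0451).

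In sciatic nerve macrophages Siglech was therefore still a well detected transcript, at 0.0942 times its brain level in the fit. The 6 microglia genes were lower there by a median log2 fold change of -6.78, and all 6 fell. P2ry12, for example, was at 128 to 158 CPM in sciatic, 2325 to 2540 CPM in optic and 4841 to 10466 CPM in brain libraries. Markers of plasmacytoid dendritic cells, the other known source of Siglech, were low: the summed level of 8 genes was 13.5 to 24.3 CPM in sciatic, 8.34 to 17.6 CPM in optic and 6.25 to 20.1 CPM in brain libraries, with Klk1 at 0 in every library and Ccr9 under 1 CPM on average in each tissue. In sciatic nerve most of that sum was Il3ra, which averaged 15.2 CPM.

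**Figure D3:**
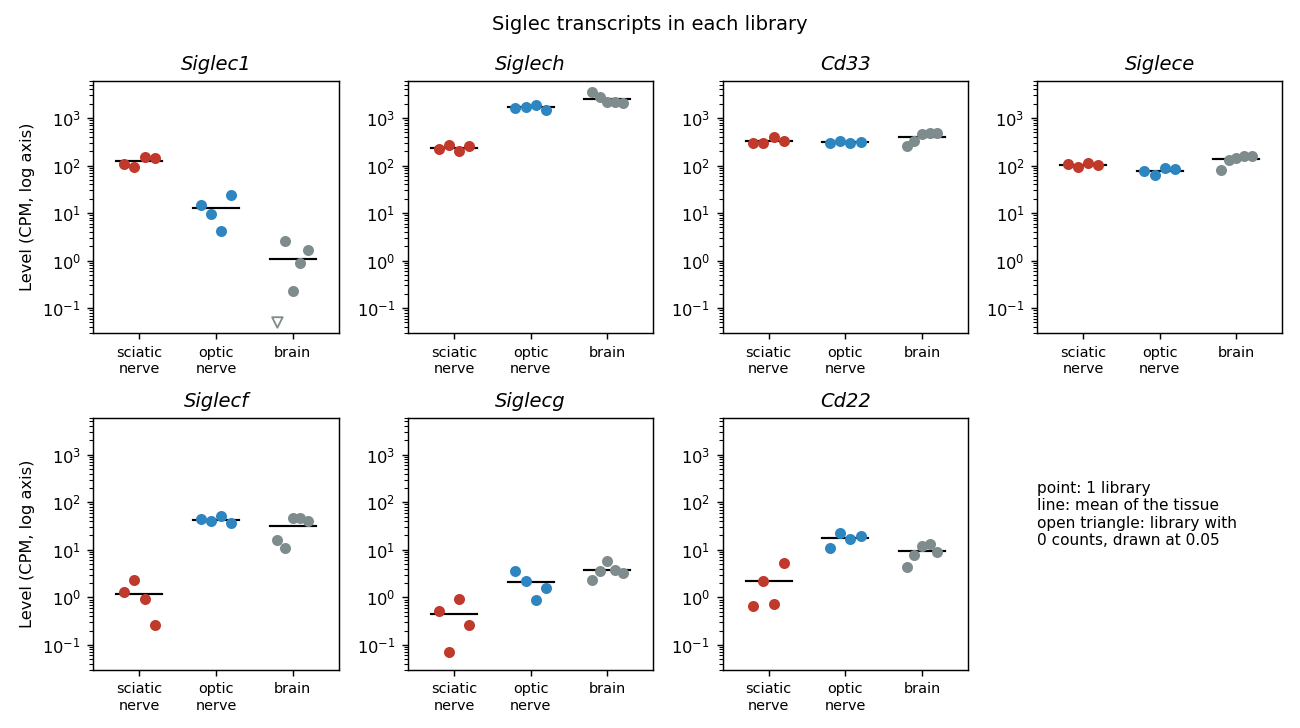
Level of each Siglec gene (CPM, log axis) in every library of sciatic nerve, optic nerve and brain, with 1 point per library and a line at the tissue mean. An open triangle marks the brain library with 0 counts of Siglec1, drawn at 0.05. Siglec1 steps down and Siglech steps up from sciatic nerve to brain, Cd33 and Siglece vary least, and Siglecf, Siglecg and Cd22 are lowest in sciatic nerve.

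Cd33 and Siglece are the broadly myeloid members of the family. Cd33, whose human counterpart is an inhibitory receptor of myeloid cells, was at 299.6, 303, 391 and 336 CPM in sciatic, 292, 332, 299 and 310 CPM in optic and 258, 326, 466, 493 and 485 CPM in brain libraries. The tissues overlapped, and brain library 1 lay below every nerve library, library 2 within their range and libraries 3 to 5 above it. The log2 fold change was -0.29 in sciatic nerve over brain (95% interval -0.65 to 0.07, edgeR adjusted p = 0.212), -0.40 in optic nerve over brain (-0.76 to -0.04, edgeR adjusted p = 0.105) and 0.11 in sciatic over optic nerve (-0.27 to 0.49, edgeR adjusted p = 0.755). Without brain library 1, Cd33 was called lower than brain in both nerves, with a log2 fold change of -0.41 in sciatic nerve (edgeR adjusted p = 0.0251) and -0.52 in optic nerve (edgeR adjusted p = 0.00956). Without brain libraries 1 and 2 the values were -0.54 (edgeR adjusted p = 0.00126) and -0.63 (edgeR adjusted p = 5.53e-04).

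Siglece, an inhibitory receptor of neutrophils, macrophages and microglia, was at 109, 91.5, 114 and 104 CPM in sciatic, 77.1, 63.1, 88.8 and 84.5 CPM in optic and 79.4, 132, 145, 159 and 157 CPM in brain libraries. All sciatic nerve libraries were above all optic nerve libraries, and brain library 1 lay among the optic nerve libraries. Siglece fell in optic nerve against brain (log2 fold change -0.78 ± 0.19, edgeR adjusted p = 0.00580). Sciatic nerve over brain gave -0.36 ± 0.19 (edgeR adjusted p = 0.132) and sciatic over optic nerve 0.42 ± 0.20 (edgeR adjusted p = 0.161), neither of which was called. Without brain library 1 these were -0.50 (edgeR adjusted p = 0.00627) and 0.42 (edgeR adjusted p = 0.0329), and both were called. Neutrophil genes, the other known setting of Siglece, were near 0: the 8 summed to 1.33 to 3.02 CPM in sciatic, 0.323 to 0.554 CPM in optic and 0 to 0.233 CPM in brain libraries. S100a8, Ly6g and Mmp8 had no count in any library. Retnlg, the only 1 of the 8 that was tested, had 96 counts over sciatic, 34 over optic and 0 over brain libraries. It was called higher in both nerves over brain, at least 61.7-fold in sciatic and 17.5-fold in optic nerve (floor of 3 counts). Ngp and Camp had 10 and 5 counts in sciatic nerve. The part of neutrophils in the Siglece levels was not tested.

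Siglecf, an inhibitory receptor best known from eosinophils and alveolar macrophages, was moderate in both tissues of the central nervous system and low in sciatic nerve. It was at 1.31, 2.28, 0.936 and 0.266 CPM in sciatic, 43.9, 40.7, 50.9 and 37.2 CPM in optic and 16.02, 10.96, 46.7, 46.6 and 39.8 CPM in brain libraries. The sciatic nerve libraries lay below all others, and brain fell apart into libraries 1 and 2 at 16.02 and 10.96 CPM and libraries 3 to 5 within the range of optic nerve. The log2 fold change was -4.74 ± 0.57 in sciatic nerve over brain (edgeR adjusted p = 7.11e-06) and -5.17 ± 0.59 in sciatic over optic nerve (edgeR adjusted p = 1.08e-05). Optic nerve over brain was not called (0.43, 95% interval -0.44 to 1.30, edgeR adjusted p = 0.478), and without brain libraries 1 and 2 this value was -0.030 ± 0.34. Eosinophil genes were near 0 in all tissues: the 7 summed to 1.57 to 4.43 CPM in sciatic, 0.352 to 2.18 CPM in optic and 0.0755 to 3.14 CPM in brain libraries, most of it Ccr3, with Epx, Ear1 and Prg3 at 0 in every library.

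Siglecg, an inhibitory receptor known from B cells that can bind CD24, was low in all tissues. It was at 0.523, 0.0692, 0.936 and 0.266 CPM in sciatic, 3.62, 2.21, 0.893 and 1.54 CPM in optic and 2.27, 3.59, 5.74, 3.67 and 3.22 CPM in brain libraries. Sciatic nerve lay below brain with no overlap and overlapped with optic nerve through a single library. The log2 fold change was -3.03 ± 0.73 in sciatic nerve over brain (edgeR adjusted p = 0.00326) and -0.84 ± 0.66 in optic nerve over brain (edgeR adjusted p = 0.338). Sciatic over optic nerve gave -2.19 ± 0.73 (edgeR adjusted p = 0.0435), and this call was lost in 13 of 20 alternative analyses, with adjusted p from 0.00958 to 0.129 over all 20. Of the 13, 10 left out a single library: sciatic nerve 1, 2 or 4, optic nerve 1, 2 or 4, or brain 2, 3, 4 or 5.

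Cd22, the inhibitory co-receptor of B cells that has also been described in microglia, was highest in optic nerve. It was at 0.654, 2.21, 0.720 and 5.33 CPM in sciatic, 10.97, 23.1, 16.5 and 19.9 CPM in optic and 4.31, 7.90, 12.2, 12.99 and 9.19 CPM in brain libraries. Sciatic nerve did not overlap with optic nerve and overlapped with brain through its highest library. Cd22 fell in sciatic nerve against optic nerve (log2 fold change -2.98 ± 0.61, edgeR adjusted p = 0.00216) and against brain (-2.06 ± 0.57, edgeR adjusted p = 0.00804). Optic nerve over brain was not called, at 0.92 (95% interval -0.11 to 1.94, edgeR adjusted p = 0.187). Without sciatic nerve library 4 the mean in sciatic nerve was 1.196 CPM, against 2.23 CPM with it, and the log2 fold change was -3.87 over optic nerve (edgeR adjusted p = 2.09e-04) and -2.98 over brain (edgeR adjusted p = 5.03e-04). The B cell gene Cd79a had 2 counts over the sciatic nerve libraries, against 10 over optic nerve and 7 over brain libraries. Of the 8 B cell genes, 6 were detected in sciatic nerve library 4, against 3, 3 and 4 in libraries 1 to 3. Some were highest there at low levels: Ms4a1 was at 3.33 CPM in library 4, at 0.288 CPM or less in the other sciatic nerve libraries and at 0 in optic nerve and brain. Ebf1 was at 2.27 CPM in library 4 and at most 0.346 CPM in the other 3 of sciatic nerve, and Pax5 had counts in sciatic nerve in library 4 alone. The part of B cells in the Cd22 level of that library was not tested. The 8 B cell genes summed to 33.6 to 49.3 CPM in sciatic, 24.4 to 30.0 CPM in optic and 54.1 to 85.8 CPM in brain libraries, nearly all of it Cd79b (on average 36.3 CPM in sciatic, 27.6 CPM in optic and 69.8 CPM in brain libraries).

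To compare members with each other, levels were divided by exonic length. On average, Siglech was the most abundant member in every tissue, at 70.6 ± 10.0 CPM per kb in sciatic nerve, 499 ± 49.95 CPM per kb in optic nerve and 749 ± 183 CPM per kb in brain. Among the 12817 tested genes with a length (96.8%), that is percentile 94.5 in sciatic nerve, 99.3 in optic nerve and 99.7 in brain. Siglece followed in each tissue, at 56.7 CPM per kb in sciatic nerve, 42.4 in optic nerve and 72.8 in brain, and then Cd33, at 42.8 CPM per kb in sciatic nerve, 39.7 in optic nerve and 52.2 in brain. Next came Siglec1 in sciatic nerve, at 17.3 ± 3.86 CPM per kb and percentile 80.8. In optic nerve and brain Siglecf came next (15.5 ± 2.09 CPM per kb in optic nerve and 11.5 ± 6.18 in brain), and Siglec1 was at 1.81 CPM per kb in optic nerve and 0.153 in brain. Siglecg averaged under 1 CPM per kb in all tissues. These ranks are by mean, and single libraries departed from them. In sciatic nerve library 3 Siglece was above Siglech (61.8 against 58.8 CPM per kb). In optic nerve library 2 Cd33 was above Siglece (42.7 against 34.1 CPM per kb).

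The make-up of the family thus differed mainly in its evenness. Of the summed level of the 7, Siglech held 37.5% ± 5.69 in sciatic nerve, 82.8% ± 1.49 in optic nerve and 83.5% ± 6.16 in brain (SD, n = 4, 4 and 5). In sciatic nerve Siglece held 30.1%, Cd33 22.7% and Siglec1 9.16%. In optic nerve the shares were 7.06% for Siglece, 6.63% for Cd33 and 0.314% for Siglec1, and in brain 8.58%, 6.17% and 0.0178% for the same genes. The sum itself was 188 ± 7.18 CPM per kb in sciatic nerve, 602 ± 51.5 CPM per kb in optic nerve and 889 ± 146 CPM per kb in brain, with no overlap between tissues. The order of Siglece and Cd33 in the nerves depends on the length used. With the longest protein-coding transcript, an alternative chosen after seeing the data, Siglece held 23.7% and Cd33 24.3% in sciatic nerve, and Siglece held 4.99% and Cd33 6.35% in optic nerve.

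**Figure D4:**
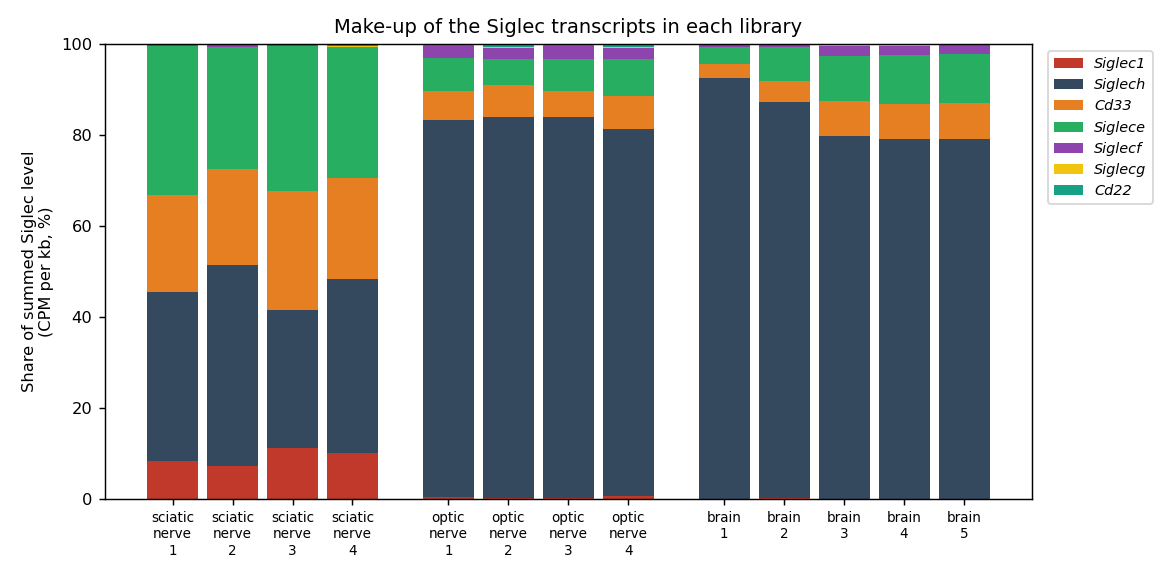
Share of each Siglec gene in the summed level of the 7 (CPM per kb of exonic length, %), 1 bar per library, in sciatic nerve (4), optic nerve (4) and brain (5). Siglech holds 30.5% to 44.3% of the sum in sciatic nerve libraries, 80.6% to 83.8% in optic nerve libraries and 79.0% to 92.6% in brain libraries.

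Each member's closest companions over the 13 libraries were taken as the 3 genes with the highest Pearson correlation of log2 CPM. These are descriptions, since all 13 points share the tissue differences. For Siglec1 they were Kcnab2, Cybb and Pltp (0.966 to 0.975), for Siglech Gfm2, Slc16a6 and Sall3 (0.992 to 0.995), and for Siglecf Tspan18, F9 and Chn2 (0.966 to 0.981). For Cd33 they were Adam17, Agps and Spcs3 (0.951 to 0.966), for Siglece Tifa, Dpagt1 and Nfam1 (0.934 to 0.950), for Siglecg Tmem110, Zfp518b and Stx2 (0.941 to 0.960) and for Cd22 Epb41l3, Neurl1a and H2-Ob (0.928 to 0.951). No member was among the closest 3 of another.

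The sugars that Siglecs bind are made by sialyltransferases, and several of these enzymes differed strongly between the tissues. Of 20 sialyltransferase genes 12 were tested: 4 rose and 4 fell in sciatic nerve over brain, 1 rose and 3 fell in optic nerve over brain, and 5 rose and 4 fell in sciatic over optic nerve, with median log2 fold changes of -0.21, -0.15 and 0.28. Calls over all genes tested were 48.4%, 36.9% and 21.8% in these comparisons. St3gal5, which makes the ganglioside GM3, was at 17.1 to 29.6 CPM in sciatic, 211 to 260 CPM in optic and 189 to 278 CPM in brain libraries. It fell by 3.40 ± 0.21 on the log2 scale in sciatic nerve over brain (edgeR adjusted p = 4.18e-09) and by 3.30 ± 0.21 in sciatic over optic nerve (edgeR adjusted p = 2.67e-08). St3gal1, which caps O-linked glycans, went the other way, with 37.0, 31.9, 34.2 and 21.2 CPM in sciatic, 2.57 to 3.91 CPM in optic and 0.227 to 3.91 CPM in brain libraries. Its log2 fold change was 4.34 ± 0.56 in sciatic nerve over brain (edgeR adjusted p = 1.62e-05), or 5.08 without brain library 2, and 3.26 ± 0.59 in sciatic over optic nerve (edgeR adjusted p = 8.05e-04).

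Among the enzymes that add sialic acid to sialic acid, St8sia6 was highest in optic nerve (57.5 CPM, against 7.28 CPM for sciatic and 13.5 CPM for brain libraries) and rose there over brain by 2.09 ± 0.40 on the log2 scale (edgeR adjusted p = 9.12e-04). St8sia1, the GD3 synthase, averaged 0.0833 CPM in sciatic, 3.79 CPM in optic and 1.57 CPM in brain libraries, and was called lower in sciatic nerve in both comparisons. All its sciatic nerve counts came from library 4. St8sia4, a polysialyltransferase, is named because it went the other way, with 114, 161, 236 and 144 CPM in sciatic, 7.98 to 38.0 CPM in optic and 23.9 to 38.9 CPM in brain libraries. It rose by 2.43 ± 0.38 in sciatic nerve over brain (edgeR adjusted p = 8.97e-05) and by 3.20 ± 0.42 in sciatic over optic nerve (edgeR adjusted p = 4.85e-05). In optic nerve over brain St8sia4 was not called (-0.77, edgeR adjusted p = 0.125). Without optic nerve library 4 it was called lower there (-1.44, edgeR adjusted p = 0.00167). St3gal2 and St6galnac4, both enzymes of O-glycans and gangliosides, fell in both nerves against brain. St3gal2 averaged 12.9 CPM in sciatic, 40.7 CPM in optic and 94.1 CPM in brain libraries, and St6galnac4 93.3 CPM in sciatic, 94.6 CPM in optic and 219 CPM in brain libraries.

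**Figure D5:**
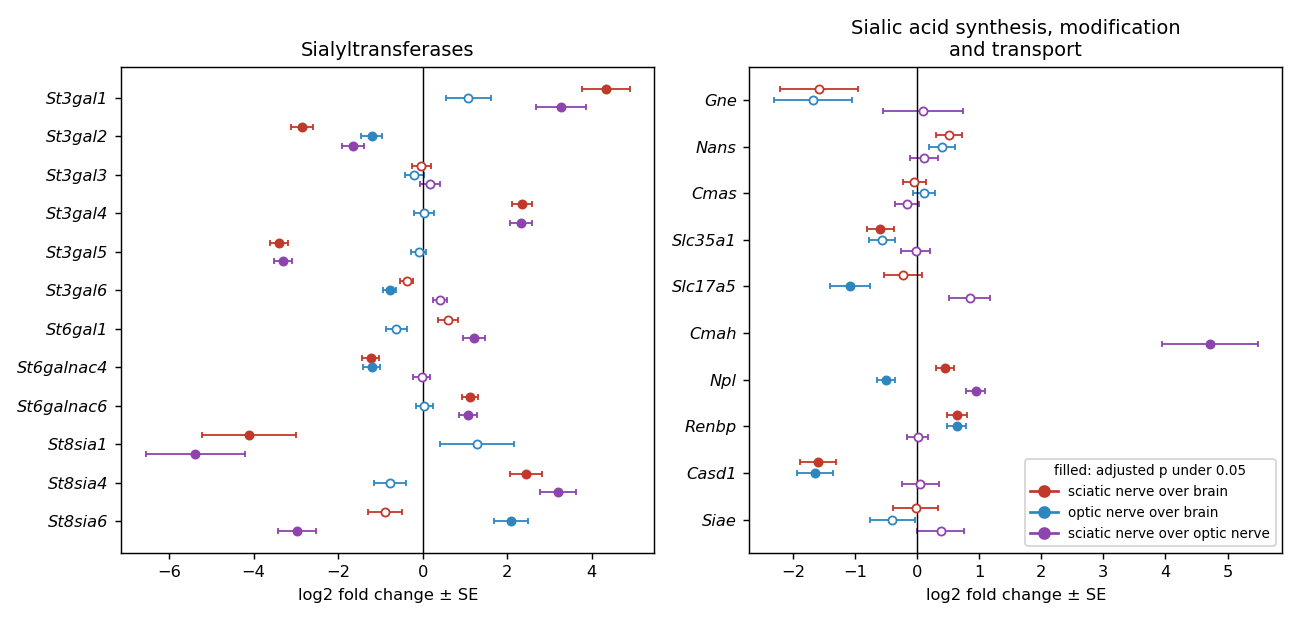
Log2 fold change ± SE of the tested sialyltransferase genes (left) and of genes for sialic acid synthesis, modification and transport (right) in sciatic nerve over brain, optic nerve over brain and sciatic over optic nerve. Filled points have an adjusted p under 0.05, and the contrasts of Cmah with brain are left out because brain held 1 count. St3gal1 lies right of 0 and St3gal5 left of 0 wherever sciatic nerve is on top.

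Of 11 genes for sialic acid synthesis, modification and transport, 10 were tested: 3 rose and 2 fell in sciatic nerve over brain, 2 rose and 3 fell in optic nerve over brain, and 2 rose and none fell in sciatic over optic nerve, with median log2 fold changes of -0.03, -0.45 and 0.11. Cmah, the hydroxylase that turns N-acetylneuraminic acid into N-glycolylneuraminic acid and so changes the ligand itself, was at 85.1, 76.8, 93.2 and 60.02 CPM in sciatic nerve and at 5.08, 0.0538, 6.08 and 0.651 CPM in optic nerve. All 5 brain libraries together held 1 count of it (0.00712 CPM on average). The ratio of summed counts to brain was 8887-fold in sciatic nerve (95% interval 1594 to 351098) and 343-fold in optic nerve (60.9 to 13598), for counting error only, and sciatic over optic nerve gave a log2 fold change of 4.72 ± 0.77 (edgeR adjusted p = 3.46e-04), or 5.33 without optic nerve library 3. The optic nerve libraries differed widely from each other in Cmah, unlike those of sciatic nerve.

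Casd1, which adds acetyl groups to sialic acid, averaged 33.2 CPM in sciatic, 32.0 CPM in optic and 100 CPM in brain libraries and fell in both nerves (log2 fold change -1.59 ± 0.29 and -1.64 ± 0.29, edgeR adjusted p = 3.60e-04 and 5.08e-04). Renbp, which converts a precursor sugar of the pathway, rose in both nerves (189 CPM in sciatic, 187 CPM in optic and 121 CPM in brain libraries). Npl, the lyase that breaks sialic acid down, rose in sciatic over optic nerve by 0.94 ± 0.15 (edgeR adjusted p = 3.36e-04), and Slc17a5, the lysosomal exporter of sialic acid, fell in optic nerve over brain by 1.08 ± 0.32 (edgeR adjusted p = 0.0155), a call lost without optic nerve library 2 (edgeR adjusted p = 0.0567). Of the sialidases and their partner Ctsa, 3 of 5 genes were tested, and a single call was made: the lysosomal sialidase Neu1 averaged 104 CPM in sciatic, 93.1 CPM in optic and 75.4 CPM in brain libraries, a log2 fold change of 0.47 ± 0.19 in sciatic nerve over brain (edgeR adjusted p = 0.0494). That call was lost in 10 of the 13 fits that left out 1 library, in which the log2 fold change was 0.35 to 0.50. The list's median log2 fold changes were -0.01, -0.04 and 0.04.

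Proteins that carry sialic acid as potential ligands also differed. Of 10 carriers 9 were tested: 7 rose and 2 fell in sciatic nerve over brain, 5 rose and 1 fell in optic nerve over brain, and 2 rose and 2 fell in sciatic over optic nerve. The fitted median log2 fold changes were 5.26, 2.07 and -0.05, and the first was 3.17 with genes of 0 to 3 brain counts at their floor or count ratio. Selplg, the mucin-like selectin ligand that is abundant in microglia, was at 184 to 293 CPM in sciatic, 2064 to 3020 CPM in optic and 3709 to 6460 CPM in brain libraries. It fell by 3.48 ± 0.22 in sciatic over optic nerve (edgeR adjusted p = 2.40e-08). Cd44, the hyaluronan receptor, averaged 252 CPM in sciatic, 43.6 CPM in optic and 2.31 CPM in brain libraries, and Emb, an adhesion glycoprotein, 177 CPM in sciatic, 1.21 CPM in optic and 0.805 CPM in brain libraries. Brain library 1 held Emb at 3.70 CPM and the other 4 at 0.285 CPM or less, and without it Emb was called higher in optic nerve over brain (log2 fold change 3.65, edgeR adjusted p = 0.00282). Cd24a, which encodes the known partner of Siglec-G, averaged 5.38 CPM in sciatic, 3.01 CPM in optic and 0.0569 CPM in brain libraries, where all its counts came from library 2. Siglecg had the opposite order, with averages of 0.449 CPM in sciatic, 2.06 CPM in optic and 3.70 CPM in brain libraries. Spn had 3 counts in brain, all in library 1, and was 129-fold higher in sciatic nerve (95% counting interval 43.6 to 632), and Muc1 had no count in brain and was at least 49.4-fold higher in optic nerve (floor of 3 counts over the brain libraries). The Muc1 libraries of optic nerve and brain overlapped at 0, so not every optic nerve library held it.

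Downstream of the inhibitory members, 10 ITIM signalling genes were tested: none rose and 6 fell in sciatic nerve over brain, 3 rose and 4 fell in optic nerve over brain, and none rose and 5 fell in sciatic over optic nerve, with median log2 fold changes of -0.90, -0.16 and -0.59. Inpp5d, the inositol phosphatase SHIP, was at 103 to 200 CPM in sciatic, 328 to 419 CPM in optic and 522 to 859 CPM in brain libraries. Its log2 fold change was -2.11 ± 0.21 in sciatic nerve over brain (edgeR adjusted p = 9.59e-07) and -0.96 ± 0.20 in optic nerve over brain (edgeR adjusted p = 0.00201). The kinases Lyn (-1.37 ± 0.15) and Csk (-1.05 ± 0.21), which phosphorylate and regulate such motifs, also fell in sciatic nerve over brain. The Src family kinase Fgr averaged 2.91 CPM in sciatic, 35.2 CPM in optic and 5.36 CPM in brain libraries. Ptpn6, a tyrosine phosphatase that ITIMs recruit, was named for this role and averaged 241 CPM in sciatic, 391 CPM in optic and 366 CPM in brain libraries, with a log2 fold change of -0.60 ± 0.19 in sciatic nerve over brain (edgeR adjusted p = 0.0157). The ubiquitin ligase Cbl fell in optic nerve over brain by 1.00 ± 0.28.

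The adaptor of Siglec-H was abundant in all 3 tissues. Tyrobp, named for that role, averaged 1259 CPM in sciatic, 1879 CPM in optic and 1277 CPM in brain libraries, and was not called in any comparison of all 13 libraries (log2 fold change -0.02 ± 0.22 in sciatic nerve over brain, 0.56 ± 0.22 in optic nerve over brain and -0.58 ± 0.24 in sciatic over optic nerve). Its brain libraries split, with 2020 and 1535 CPM in libraries 1 and 2 and 868 to 990 CPM in libraries 3 to 5. Without libraries 1 and 2 Tyrobp was called in each comparison, with log2 fold changes of 0.41 in sciatic nerve over brain (edgeR adjusted p = 0.0139), 1.00 in optic nerve over brain (edgeR adjusted p = 4.65e-05) and -0.59 in sciatic over optic nerve (edgeR adjusted p = 0.00170). Without library 1 alone it was called in the last 2 of these, at 0.78 (edgeR adjusted p = 0.00281) and -0.58 (edgeR adjusted p = 0.0233). Of the 7 genes for DAP12 and ITAM signalling, 1 rose and 3 fell in sciatic nerve over brain, 1 rose in optic nerve over brain and 3 fell in sciatic over optic nerve, with median log2 fold changes of -0.07, 0.18 and -0.58. Those that fell in sciatic nerve were the phospholipase Plcg2 (74.3 CPM in sciatic, 228 CPM in optic and 182 CPM in brain libraries), the exchange factor Vav1 and the linker Blnk. The Fc receptor chain Fcer1g rose in both nerves over brain, by 0.53 ± 0.17 in sciatic nerve (edgeR adjusted p = 0.0194) and 0.51 ± 0.17 in optic nerve (edgeR adjusted p = 0.0289). Leaving out 1 library at a time, the first call was lost without sciatic nerve library 4 or brain library 4 (0.42 and 0.45) and the second without optic nerve library 1 or 3 or brain library 3, 4 or 5 (0.44 to 0.50).

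Most of the other receptors for sialic acid that were tested were higher in the nerves than in brain. Of 8 such genes 5 were tested: 4 rose and 1 fell in sciatic nerve over brain, 5 rose in optic nerve over brain, and 2 rose and 1 fell in sciatic over optic nerve, with median log2 fold changes of 6.26 (6.23 with genes of no brain count at their floor), 2.93 and 1.56. The activating paired receptors Pilrb1 and Pilrb2 were both high in sciatic nerve. Pilrb1 was at 20.7 to 25.8 CPM in sciatic, 0.71 to 3.22 CPM in optic and 0.125 to 0.604 CPM in brain libraries, and Pilrb2 at 22.8 to 32.8 CPM in sciatic, 1.36 to 5.33 CPM in optic and 0 to 0.292 CPM in brain libraries. Their log2 fold changes in sciatic over optic nerve were 3.33 ± 0.52 and 3.35 ± 0.69 (edgeR adjusted p = 2.30e-04 and 0.00242). Siglec15 had no count in any library.

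Mag, the Siglec of myelin, was at 9.94, 10.5, 8.57 and 6.80 CPM in sciatic, 32.1 to 41.4 CPM in optic and 13.4 to 22.5 CPM in brain libraries, and fell in sciatic over optic nerve by 2.03 ± 0.23 on the log2 scale (edgeR adjusted p = 1.27e-05). The summed level of 6 oligodendrocyte genes, Mag among them, was 54.2 to 84.4 CPM in sciatic, 160 to 218 CPM in optic and 50.6 to 67.7 CPM in brain libraries, and their part in the Mag level was not tested.

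Transcription factors of myeloid cells were split. Of 10, 3 rose and 4 fell in sciatic nerve over brain, 3 rose and 3 fell in optic nerve over brain, and 2 rose and 3 fell in sciatic over optic nerve, with median log2 fold changes of -0.44, 0.24 and 0.00. Irf8, a regulator of microglia identity, had the order of Siglecf: 219 to 257 CPM in sciatic, 703 to 985 CPM in optic and 616 to 765 CPM in brain libraries, with a log2 fold change of -1.77 ± 0.14 in sciatic over optic nerve (edgeR adjusted p = 2.90e-07). Cebpa also fell in sciatic nerve in both comparisons, with averages of 22.1 CPM in sciatic, 79.9 CPM in optic and 76.6 CPM in brain libraries. Cebpb was high in both nerves (657 CPM in sciatic and 539 CPM in optic, against 65.1 CPM in brain libraries). Maf fell in optic nerve over brain by 2.60 ± 0.35, or by 1.83 without brain libraries 1 and 2, where it was at 837 and 529 CPM against 231 to 262 CPM in libraries 3 to 5, and the sterol receptor Nr1h3 rose in both nerves from a low level (3.41 CPM in sciatic nerve and 2.14 CPM in optic nerve, against 0.215 CPM in brain). Spi1, which encodes PU.1 and is named for the motif searched above, was not called in any comparison and averaged 351 CPM in sciatic, 425 CPM in optic and 345 CPM in brain libraries.

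Without brain libraries 1 and 2, 1 member rose and 6 fell in sciatic nerve over brain, 1 rose and 3 fell in optic nerve over brain, and 2 rose and 4 fell in sciatic over optic nerve. This fit was among 7 alternatives that did not leave out just 1 library. Over these, calls over all genes ran from 5973 to 6943, from 4413 to 5636 and from 2521 to 4054. With all 13 libraries they were 6410, 4893 and 2892 of 13246. The member counts describe the family only. Without brain libraries 1 and 2, the pathway counts that moved by more than 1.5 times were all larger than with them. Sialyltransferases that rose in optic nerve over brain became 2. Genes for sialic acid synthesis, modification and transport that fell in optic nerve over brain became 6. Of the DAP12 and ITAM signalling genes 3 rose in sciatic nerve over brain, and 2 rose and 1 fell in optic nerve over brain. Of the sialidases and Ctsa, 1 rose in optic nerve over brain. Of the ITIM genes, 1 rose in sciatic nerve over brain. Of the carriers, 2 fell in optic nerve over brain. Of the interferon genes, 2 rose and 1 fell in sciatic over optic nerve.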

How the data were processed

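The authors deposited raw read counts per gene symbol for 13 libraries, made by STAR alignment to mm10 and counting with featureCounts 1.5.1, according to the submitters' processing notes. The sources used here give no STAR version, annotation, strand setting or handling of multi-mapping reads. No column was left unused (0).

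Counts were filtered with filterByExpr by tissue (13246 of 48587 symbols kept), scaled by TMM and tested in R 4.3.3 with edgeR 4.0.16 (quasi-likelihood F-test, all 13 libraries in 1 fit with no replicate block, Benjamini-Hochberg adjustment over all genes tested). The test was also run on simulated counts with known changes, and the outcome is not given here. Standard errors are those of the F statistic, and intervals are at 95%. Those of fitted log2 fold changes use the normal distribution and are somewhat narrower than the F-test would give. Log2 CPM for correlations used a prior count of 2. A count of 0 over a tissue allows a level of up to 0.0512 CPM for sciatic, 0.0409 for optic and 0.0265 for brain libraries (3 counts). Floors and count intervals cover counting error alone, as PCR duplicates are not separate molecules. Replicates of a tissue differed by more than counting noise (chi-square per degree of freedom of at least 16.0).

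Gene positions and lengths come from GENCODE M21 and promoter windows from RefSeq (GRCm38.p6). Beside the 7 members, the text names up to 3 called genes with the largest fold change per pathway list and comparison, and otherwise says why a gene is named. The members and lists were chosen with earlier results of these data known. Alternatives were DESeq2 1.42.0, other scalings and filters, a replicate block, fits of 2 tissues and leaving out libraries. Results for some genes of the lists are not reported here.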

Additional observations from a re-analysis of the deposited data

How the results depend on the processing

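Over 20 alternatives, the 21 combinations of member and comparison gave 420 values: 398 kept their direction and their side of the threshold, 13 lost a call (all of them Siglecg in sciatic against optic nerve), 8 gained a call (Cd33 and Siglece, all without brain library 1 or without libraries 1 and 2), and 1 changed sign without a call. That was Siglecf in optic nerve over brain, at -0.030 without brain libraries 1 and 2 (edgeR adjusted p = 0.957). Leaving out 1 library at a time, 5 to 7 members were called in sciatic nerve over brain, 3 to 4 in optic nerve over brain and 4 to 6 in sciatic over optic nerve, while the calls over all genes ran from 5859 to 6665, from 3972 to 5304 and from 2446 to 3457. Replicate numbers of the nerves did not pair the libraries (correlations of same-numbered deviations from -0.07 to 0.02 over 4 pairs, with 1 sciatic nerve library closest to its own number). With a replicate block for the nerves, 6088, 4413 and 2521 genes were called, with 5, 3 and 4 members, and Siglecg in sciatic over optic nerve had a log2 fold change of -2.42 (edgeR adjusted p = 0.0689). The brain columns carry no labelled replicate number and could not be paired. Scaled to plain totals, the sciatic nerve means of Siglech, Cd33 and Siglece were 203, 284 and 89.4 CPM. With the longest protein-coding transcript as length, Siglech held 43.4% of the summed level in sciatic nerve and 85.9% in optic nerve. Siglecg averaged 0.449 CPM in sciatic nerve, so its folds rest on few counts.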
